A study of Arabidopsis thaliana with 12 samples.

Results

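The transcripts of 10 calcium pumps and exchangers were followed through the root response of Arabidopsis thaliana to cellotriose (CT), a short chain of β-1,4-linked glucose units released from cellulose. The 10 genes are 8 autoinhibited calcium ATPases (ACAs) and 2 cation/proton exchangers (CAXs), taken by their locus identifiers. Earlier results of these data were known when they were chosen. All 10 were present among the 23106 genes of the tables. They are ACA1 (AT1G27770), ACA2 (AT4G37640), ACA4 (AT2G41560), ACA8 (AT5G57110), ACA10 (AT4G29900), ACA11 (AT3G57330), ACA12 (AT3G63380), ACA13 (AT3G22910), CAX1 (AT2G38170) and CAX3 (AT3G51860). RNA-seq was performed on 12 libraries of poly-A RNA from roots, 3 in each of 4 groups. The plants were segregants from a cross of the T-DNA insertion line cork1-2 with a wild type that contains aequorin, a calcium-reporting protein. They were either segregated wild type (SWT) or homozygotes carrying the insertion on both copies (HO). The insertion lies in CORK1, a receptor kinase gene with leucine-rich repeats and a malectin domain. Seedlings had 10 days on MS medium and 1 day on PNM medium, and each genotype then received 1 mL of water or of 10 µM CT for 1 h, with the roots of 16 seedlings pooled in each library. The comparison of the genotypes rests on 1 insertion allele, and the labels do not say whether the replicate libraries came from separate days. The p-values therefore measure the spread between these libraries, which may be technical.

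Cytosolic calcium is kept low by transporters that move the ion out of the cell or into the vacuole and the endoplasmic reticulum. ACAs are P-type ATPases that spend ATP to pump calcium, and most of them carry an N-terminal domain that blocks the pump until calmodulin loaded with calcium binds it, whereas CAXs use the proton gradient across the vacuolar membrane (tonoplast). After an elicitor opens calcium channels, these transporters help to shape and end the cytosolic calcium signal.

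The values are mean normalized read counts, which are counts divided by a size factor for library depth. The tables gave a mean over all 12 libraries and fitted differences between groups, from which the mean of each group and its standard error (SE) were recovered. Values of single libraries were not used here, so the depth of each library is unknown and overlap between single libraries cannot be judged. The targeted gene CORK1 (AT1G56145) had 1413 ± 103 normalized counts (SE, n = 3) in SWT with water and 255 ± 20.3 (SE, n = 3) in HO with water. With CT it had 1999 ± 144 in SWT and 302 ± 23.7 in HO. It was therefore lower in HO under both treatments, with a log2 difference of -2.47 (SE 0.16) in water and an adjusted p of 2.93e-52 in the Wald test of the authors' DESeq2 fit with Benjamini-Hochberg adjustment. All 8 root markers on a list of cell type genes had values, and 0 of the 8 changed with CT in SWT or in HO at an adjusted p below 0.05. Of 8 genes listed as leaf markers, 6 are photosynthesis genes and gave nearly all of the counts, and their origin was not tested. The regulators GLK1 and SPCH, named here after their values were seen, had means of 9.73 and 5.26 counts. The summed counts over the 8 were 7417 in SWT with water, 4668 in SWT with CT, 8249 in HO with water and 7907 in HO with CT.

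The members lay on all 5 chromosomes. In the RefSeq annotation of assembly TAIR10.1 the plasma membrane pumps ACA8 and ACA10 had 36 and 35 exon blocks, whereas ACA12 and ACA13 had 1 each. ACA11 spanned chr3:21211014-21216836 on the minus strand with 8 exon blocks, ACA12 chr3:23406484-23410360 on the minus strand, ACA2 chr4:17682859-17687105 on the minus strand with 7 exon blocks, and CAX1 chr2:15989083-15993326 on the minus strand with 8. No run of 75 bases within an exon of any member occurred a second time in the genome, so that 0% of these windows were repeated. Exons of ACA1, ACA10 and ACA11 overlapped genes on the other strand. Reads may or may not have been assigned by strand, which the study's methods do not say, and the counts of these 3 genes are uncertain to that extent.

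Promoter sequence is shown for the 4 members whose transcripts changed with CT in SWT. Each line gives the 250 bases before the annotated start, 5′ to 3′ on the strand of the gene in TAIR10.1, with capitals marking matches to the motifs searched on both strands.
ACA2, chr4:17687106-17687355, minus strand: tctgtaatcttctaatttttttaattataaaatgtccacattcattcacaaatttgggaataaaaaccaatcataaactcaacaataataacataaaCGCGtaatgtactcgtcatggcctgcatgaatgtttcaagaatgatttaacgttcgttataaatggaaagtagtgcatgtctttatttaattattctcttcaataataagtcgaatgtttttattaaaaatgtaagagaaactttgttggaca
ACA11, chr3:21216837-21217086, minus strand: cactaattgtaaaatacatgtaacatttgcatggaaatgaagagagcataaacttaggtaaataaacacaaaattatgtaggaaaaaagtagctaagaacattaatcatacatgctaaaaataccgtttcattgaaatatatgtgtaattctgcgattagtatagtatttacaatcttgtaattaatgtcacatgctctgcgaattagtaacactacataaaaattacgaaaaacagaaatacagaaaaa
ACA12, chr3:23410361-23410610, minus strand: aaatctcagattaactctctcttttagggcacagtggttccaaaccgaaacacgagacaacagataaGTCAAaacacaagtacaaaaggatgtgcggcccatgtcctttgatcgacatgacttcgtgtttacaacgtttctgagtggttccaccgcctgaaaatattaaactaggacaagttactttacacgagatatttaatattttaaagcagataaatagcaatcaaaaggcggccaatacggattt
CAX1, chr2:15993327-15993576, minus strand: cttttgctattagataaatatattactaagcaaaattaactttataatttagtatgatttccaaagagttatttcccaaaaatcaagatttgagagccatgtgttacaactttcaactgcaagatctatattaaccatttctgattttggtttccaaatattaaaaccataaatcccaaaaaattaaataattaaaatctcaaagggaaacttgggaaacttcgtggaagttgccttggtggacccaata
The core of the W-box (TTGAC), which WRKY factors bind, was present on either strand in 5 of the 10 members (ACA1, ACA4, ACA12, ACA13 and CAX3) and in 44.9% of 27443 promoters of the same length. In ACA12 it stood on the strand opposite to the gene, 183 bases before the start. The core CGCG, which calmodulin-binding CAMTA factors recognize, occurred in 1 of the 10 members (ACA2, 153 bases before the start) and in 10.1% of all promoters. The G-box CACGTG occurred in 0 of the 10 and in 6.49% of all. None of the 3 motifs contains another, and a match is a description of the window. The promoters of ACA11 and CAX1 held none of the 3 motifs in this window.

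Every member was expressed in the roots, but over a wide range. The mean normalized count over the 12 libraries ran from 73.2 for ACA13 to 6119 for ACA8, and 9 of the 10 members were above the median of all genes (283). The coefficient of variation between replicates, worked out from the SEs, was between 8.97% for ACA10 and 44.3% for ACA13, so that ACA13 gave the least precise values. Levels of different genes were compared per kilobase of annotated exon, with SEs that hold no error of this length. In SWT with water ACA8 was highest at 1485 ± 118 counts per kb (SE), above ACA11 at 749 ± 56.5 beyond their errors. ACA11 and ACA2 (661 ± 42.1) did not differ beyond their errors, and ACA2 stood above ACA10 (478 ± 24.7). From ACA10 down to CAX1 (269 ± 26.0) no gene differed beyond error from its neighbour, in the order ACA10, CAX3, ACA1, ACA12, ACA4 and CAX1. ACA13 was lowest, at 27.8 ± 7.07 counts per kb.

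**Figure D1:**
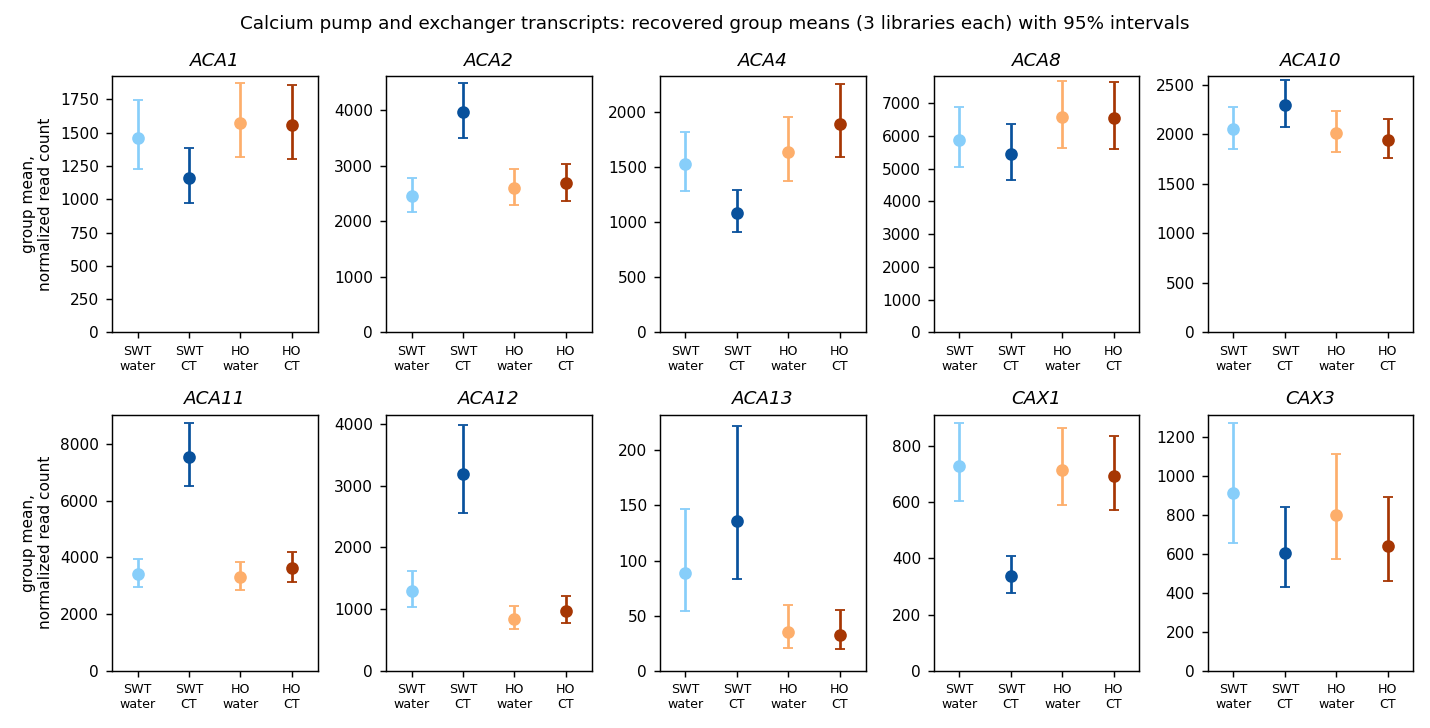
Recovered group means of the 10 members in normalized read counts (vertical axis, from 0) for SWT and HO with water or CT, with 95% intervals (3 libraries a group). ACA2, ACA11 and ACA12 stand highest and CAX1 lowest in SWT with CT (for ACA11 7535 and for CAX1 337), and the mean of ACA13 is 136 or less in every group.

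CT changed 4 of the 10 members in SWT, 3 of them upwards. ACA2, ACA11 and ACA12 rose and CAX1 fell at an adjusted p below 0.05 in the authors' Wald test. Of the 21759 genes tested, which had an adjusted p, 8.30% rose and 3.23% fell. The criteria of the study also asked for a change of at least 2.51-fold, which 2.83% of genes met and 0 of the 10 members did. ACA12, at 2.46-fold, was just under it. The members' median log2 fold change was 0.03, against -0.01 for all genes. Their median absolute log2 fold change was 0.60, against 0.24 for all genes and 0.19 for genes with a mean count of at least 50.

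Of the pumps of inner membranes, ACA2, a pump of the endoplasmic reticulum, had 2452 ± 156 normalized counts (SE, n = 3) in SWT with water and 3966 ± 251 with CT. In HO it had 2600 ± 165 with water and 2682 ± 170 with CT. The group of SWT with CT thus stood apart from the other 3, whose 95% intervals overlapped one another. The rise in SWT was 1.62-fold (95% interval 1.36 to 1.93), with an adjusted p of 2.96e-06 (Wald test, Benjamini-Hochberg). ACA1, its closest relative, which has been placed in the plastid envelope and in the endoplasmic reticulum, had 1463 ± 132 counts with water and 1160 ± 105 with CT in SWT, and 1573 ± 142 and 1556 ± 140 in HO. Its log2 fold change in SWT of -0.33 (SE 0.18) did not pass the test (adjusted p = 0.280). AT1G27760, which overlaps ACA1 on the other strand, had a log2 fold change of 0.42 (SE 0.16) and an adjusted p of 0.0664.

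The pair of pumps of the vacuolar membrane moved apart. ACA11 rose from 3411 ± 258 to 7535 ± 566 normalized counts in SWT, a 2.21-fold rise (95% interval 1.79 to 2.72) with an adjusted p of 8.27e-12 (Wald test, Benjamini-Hochberg), the smallest among the members. In HO it had 3316 ± 251 counts with water and 3620 ± 273 with CT, and these group means were close to that of SWT with water. AT3G57320, the gene that overlaps ACA11 on the other strand, fell in SWT by 0.62 on the log2 scale (SE 0.20, adjusted p = 0.0173, Wald test). Its counts went from 268 ± 25.2 to 174 ± 17.0. The part of the overlap in the counts of ACA11 was not tested. ACA4, the partner of ACA11 at the vacuole, had 1529 ± 136 counts with water and 1080 ± 96.5 with CT in SWT, and 1639 ± 145 and 1894 ± 168 in HO. Its log2 fold change in SWT was -0.50 (SE 0.18), and the adjusted p of 0.0501 was just above the threshold. With the adjustment made only over genes with a mean of at least 50 it was 0.0434, and over the 6 alternatives tried it ran from 0.0434 to 1.00, the latter in a test against the fold criterion itself. A fold change smaller than the criterion cannot pass that test.

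Among the 4 pumps of the plasma membrane, ACA12 alone passed the test in SWT. ACA8 and ACA10 are regulated by calmodulin and act in the response to bacterial flagellin, and ACA8 associates with the flagellin receptor FLS2. ACA8 had 5891 ± 467 counts with water and 5453 ± 432 with CT in SWT, and 6568 ± 520 and 6562 ± 519 in HO. ACA10 had 2053 ± 106 and 2298 ± 119 in SWT, and 2016 ± 104 and 1946 ± 101 in HO. Neither passed the test in SWT: the 95% interval of the response ran from 0.743-fold to 1.15-fold for ACA8 and from 0.970-fold to 1.29-fold for ACA10. AT4G29890, which overlaps ACA10 on the other strand, had a log2 fold change of -0.43 in SWT (SE 0.17, adjusted p = 0.0845, Wald test).

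ACA12, a plasma membrane pump described as active without calmodulin, had 1298 ± 147 counts with water and 3195 ± 359 with CT in SWT. In HO it had 842 ± 95.7 with water and 970 ± 110 with CT, so that the means of both HO groups lay below those of both SWT groups. Its rise in SWT was 2.46-fold (95% interval 1.80 to 3.36), with an adjusted p of 6.61e-07 (Wald test, Benjamini-Hochberg). This was the largest rise by fold among the 10 members. ACA13, its closest relative, known from calcium export in the papilla cells of the stigma, had 88.9 ± 22.6 and 136 ± 34.2 counts in SWT, and 35.3 ± 9.36 and 32.7 ± 8.73 in HO. Its log2 fold change with CT in SWT was 0.61 (SE 0.52), with an adjusted p of 0.545. Its 95% interval of 0.756-fold to 3.08-fold included the fold change of ACA12.

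The exchangers of the vacuolar membrane were the only members other than ACA1, ACA4 and ACA8 with a negative fold change in SWT. CAX1, a high-affinity proton/calcium exchanger, fell from 729 ± 70.3 to 337 ± 33.4 counts in SWT and had 715 ± 69.0 and 692 ± 66.9 counts in HO with water and with CT. The group of SWT with CT thus stood apart from 3 groups with nearly equal means. CAX1 was left at 46.2% of its level in water, a log2 fold change of -1.11 (SE 0.20) with an adjusted p of 9.98e-07 (Wald test, Benjamini-Hochberg), and only 2.89% of genes had a lower fold change. The summed leaf marker counts given above were also lowest in SWT with CT. Of the 8 leaf markers, 2 fell in SWT and 0 rose, where 3.23% and 8.30% of the genes tested did. The list median was -0.53 on the log2 scale, against -0.11 in HO. GLK1 and SPCH had log2 fold changes of 0.21 (SE 0.64) and 0.85 (SE 0.94) in SWT, which did not pass. The part of these transcripts in the fall of CAX1 was not tested. In such pooled roots fewer cells of a type and less RNA per cell cannot be told apart. CAX3, an exchanger described mainly from roots, had 914 ± 155 counts with water and 603 ± 102 with CT in SWT, and 798 ± 135 and 640 ± 109 in HO. Its log2 fold change was -0.60 (SE 0.35, adjusted p = 0.309) in SWT and -0.32 (SE 0.35) in HO.

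**Figure D2:**
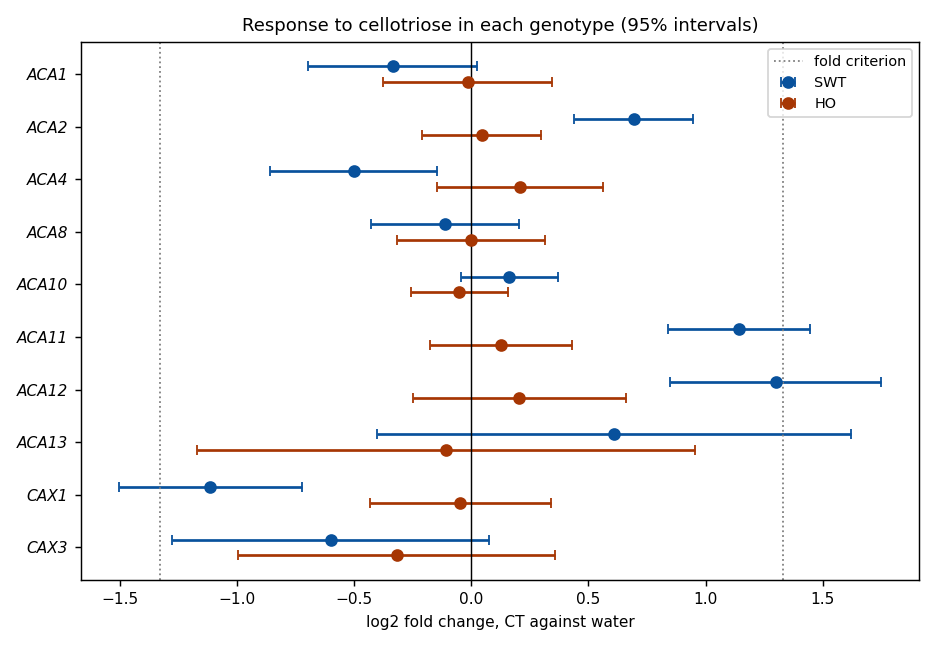
Log2 fold change of each member with CT against water (horizontal axis) in SWT and in HO, with 95% intervals; dotted lines mark the study's fold criterion. In SWT the intervals of ACA2, ACA11 and ACA12 lie above 0 and those of ACA4 and CAX1 below it, and in HO all 10 intervals include 0.

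In HO none of the 10 members passed the test with CT, where 0.00866% of genes did, or 2 of 23103. At an unadjusted p below 0.05 there were also 0 of the 10, and 428 genes (1.85%) in the whole table. The log2 fold changes of the members in HO ran from -0.32 for CAX3 to 0.21 for ACA4. Their median absolute value was 0.08, against 0.11 for all genes and 0.09 for genes with a mean count of at least 50.

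Whether the responses of the genotypes differed was tested directly, with z as the difference of their log2 fold changes over its SE and Benjamini-Hochberg adjustment over all genes. The response was more positive in SWT for 3 of the 10 members, where 3.31% of genes passed in that direction, and more negative for 1, where 0.645% passed. The difference was 1.02 (SE 0.22, adjusted p = 0.000232) for ACA11, 1.09 (SE 0.33, adjusted p = 0.0252) for ACA12 and 0.65 (SE 0.18, adjusted p = 0.0148) for ACA2. For CAX1 it was -1.07 (SE 0.28, adjusted p = 0.00626). For ACA4 it was -0.71 (SE 0.26), with a 95% interval from -1.21 to -0.21 and an adjusted p of 0.108, which did not pass over all genes. With the statistics divided by their robust spread over all genes, ACA2 and ACA12 no longer passed (adjusted p = 0.0654 and 0.0966), while ACA11 and CAX1 did (0.00287 and 0.0343). Tested against the fold criterion itself, none of these 4 passed (adjusted p = 1.00 for each). None could have passed, because each difference was smaller than the criterion.

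Within families, the sister genes of the inner-membrane pumps separated in SWT. There were 5 sister pairs, each compared in both genotypes. They were formed among the 10 members only, so that relatives outside the 10, such as ACA7, were in no pair. The response of ACA11 exceeded that of ACA4 by 1.64 on the log2 scale (SE 0.24, 95% interval 1.18 to 2.11), and that of ACA2 exceeded that of ACA1 by 1.03 (SE 0.23, 95% interval 0.59 to 1.47). The SEs take the errors of a pair as independent, which genes measured in the same libraries may not be, and no p is given for them. For the other 3 pairs the interval included 0: ACA10 less ACA8 was 0.27 (95% interval -0.10 to 0.65), ACA12 less ACA13 was 0.69 (-0.42 to 1.80) and CAX3 less CAX1 was 0.51 (SE 0.40). In HO the intervals of all 5 pairs included 0. Per kilobase, ACA11 transcripts were 2.44 times those of ACA4 in SWT with water (95% interval 1.94 to 3.07) and 7.64 times with CT (6.08 to 9.60). In HO the ratios were 2.22 and 2.09. For ACA2 over ACA1 the ratio was 1.68 and 3.43 in SWT, and 1.66 and 1.73 in HO.

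**Figure D3:**
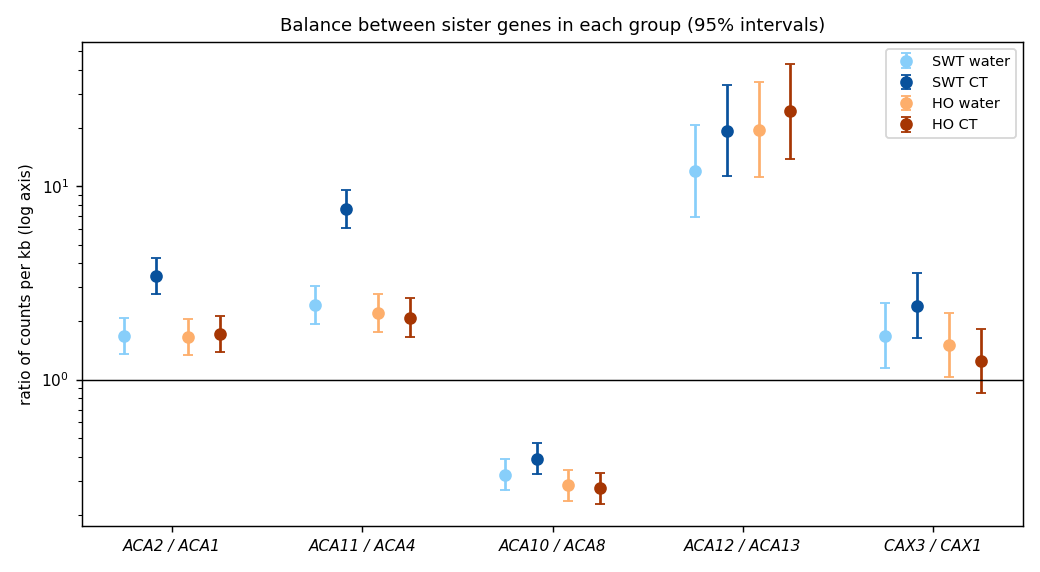
Ratio of counts per kb between sister genes (log axis) in the 4 groups, with 95% intervals. The ratios ACA2/ACA1 and ACA11/ACA4 are highest in SWT with CT (3.43 and 7.64), while for ACA12/ACA13 the intervals of all 4 groups overlap.

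The order of the members changed with CT in SWT. ACA11 (1653 ± 124 counts per kb, SE) and ACA8 (1374 ± 109) then did not differ beyond their errors, and ACA2 (1070 ± 67.6) and ACA12 (824 ± 92.6) followed, each below its neighbour beyond error. In HO with CT ACA8 still led ACA11, at 1654 ± 131 against 794 ± 60.0 counts per kb. Of the summed level of the 8 ACAs per kilobase, ACA8 held 33.5% in SWT with water and 22.8% with CT, and ACA11 16.9% and 27.4%. ACA12 held 7.55% and 13.7%. In HO the shares of ACA8 were 36.5% and 35.3%, and those of ACA11 16.1% and 17.0%. The summed level itself was 4435 ± 151 counts per kb in SWT with water and 6027 ± 206 with CT, and 4533 ± 160 and 4683 ± 164 in HO. The sum of the 2 exchangers was 724 ± 81.2 and 424 ± 52.4 in SWT, and 661 ± 71.9 and 574 ± 59.4 in HO. The sum of the 8 pumps was thus highest and that of the 2 exchangers lowest in SWT with CT. Other listed pumps and exchangers were not in these sums, whose SEs take the errors of genes as independent.

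Between the genotypes in water 0 of the 10 members passed the test, where 0.190% of genes did. At an unadjusted p below 0.05 there were 2 of the 10, and 1088 genes (4.71%) in the whole table. These were ACA12 and ACA13, the sister pair of the plasma membrane. ACA12 was at 64.8% of its SWT level in HO (log2 difference -0.63, SE 0.23, adjusted p = 0.622, Wald test) and ACA13 at 39.7% (-1.33, SE 0.53, adjusted p = 0.763). The other 8 log2 differences lay between -0.20 for CAX3 and 0.16 for ACA8.

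With CT the genotypes differed in 6 of the 10 members, in a comparison derived from the 3 tables and tested with z and Benjamini-Hochberg adjustment over all genes. It shares its SWT libraries with the response of SWT to CT and is no separate evidence of it. Lower in HO were 4 of the 10 (ACA2, ACA11, ACA12 and ACA13), where 9.00% of genes were lower, and higher were 2 (ACA4 and CAX1), where 4.28% were. ACA12 was 3.29-fold lower in HO (log2 difference -1.72, SE 0.23, adjusted p = 6.59e-12) and ACA13 4.14-fold lower (-2.05, SE 0.53, adjusted p = 0.00171). These were the 2 members past the fold criterion as well, both lower in HO. Of 23103 genes, 690 were lower and 55 higher in HO at both criteria. ACA11 differed by -1.06 (SE 0.15, adjusted p = 3.76e-10), and ACA2 by -0.56 (SE 0.13, adjusted p = 0.000267). ACA4 was 1.75-fold higher in HO (95% interval 1.37 to 2.24, adjusted p = 0.000178) and CAX1 2.05-fold higher (1.57 to 2.69, adjusted p = 6.55e-06). Of these 6, ACA2, ACA4 and ACA13 no longer passed with the statistics divided by their robust spread (adjusted p = 0.0840, 0.0717 and 0.171). Tested against the fold criterion itself, none of the 6 passed (adjusted p = 1.00 for each). Only ACA12 and ACA13, whose differences were larger than the criterion, could have passed.

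**Figure D4:**
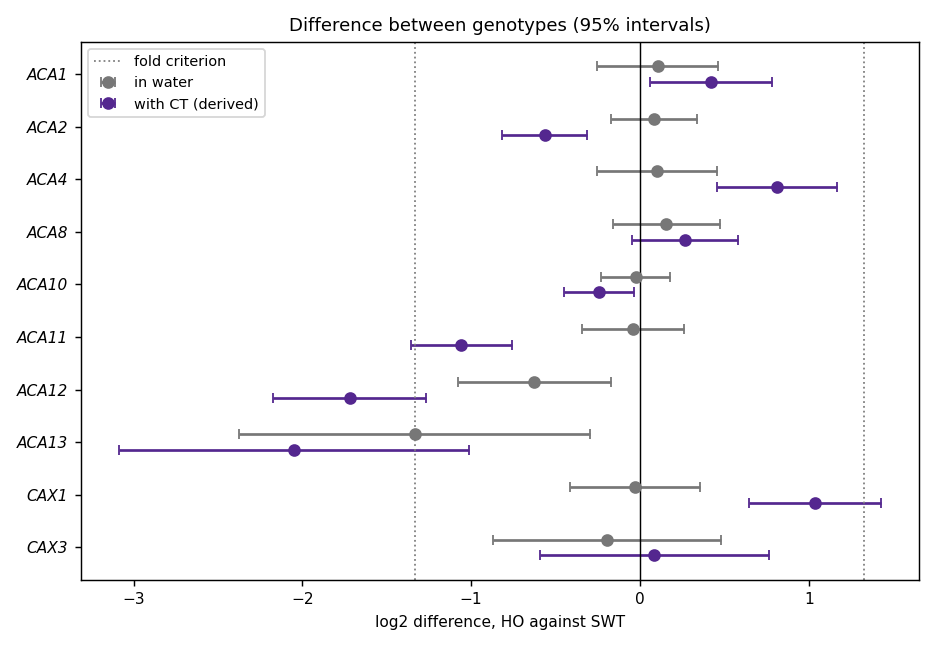
Log2 difference of HO against SWT (horizontal axis) in water and with CT, with 95% intervals and the fold criterion as dotted lines. In water the intervals of ACA12 and ACA13 lie below 0 and the other 8 include it; with CT ACA12 and ACA13 lie furthest down, at -1.72 and -2.05.

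Among the other pumps and exchangers of the cell, 17 of the 18 listed had values, among them the ECA pumps, further CAXs and the CCX exchangers. At an adjusted p below 0.05, 0 of the 17 changed with CT in SWT in the authors' Wald test, where 8.30% of the genes tested rose and 3.23% fell. At an unadjusted p below 0.05 there were 3 of the 17 (17.6%), near the 20.8% of all genes. The 17 genes had a median log2 fold change of 0.08 against -0.01 for all genes. ACA7, a pump known from pollen, had 16.4 ± 4.45 counts in SWT with water and 6.77 ± 2.17 with CT, and was higher in HO than in SWT with CT (log2 difference 1.81, SE 0.60, adjusted p = 0.0224, z test).

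On the side of calcium entry, 23 of 26 listed channel genes had values. With CT in SWT 4 rose and 2 fell, where 8.30% and 3.23% of the genes tested did. CNGC10 and CNGC13, which encode cyclic nucleotide-gated channels, passed the fold criterion too, at 3.97-fold (adjusted p = 6.12e-12) and 3.09-fold (adjusted p = 2.03e-07). CNGC3 rose with a log2 fold change of 1.23 (SE 0.18). For these 3 the responses of the genotypes differed, by 1.78, 1.60 and 0.86 on the log2 scale (adjusted p = 0.000195, 0.00335 and 0.0290, z test). The difference of ACA12 (1.09) lay between those of CNGC13 and CNGC3. CNGC19 was lower in HO than in SWT with CT (log2 difference -1.80, SE 0.59, adjusted p = 0.0224), and its response to CT in SWT did not pass the test.

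All 12 listed regulators of CAX exchangers and proton pumps had values. Only CBL1, a calcium sensor that acts with CIPK kinases, passed in SWT, with 446 ± 39.0 counts in water and 872 ± 74.4 with CT, a log2 fold change of 0.97 (SE 0.18, adjusted p = 1.48e-06). Its response differed between the genotypes by 0.96 (SE 0.25, adjusted p = 0.00569). This was 1 of 12, near the 8.30% of the genes tested that rose. The vacuolar and plasma membrane proton pumps on the list were among the 11 that did not pass. The median log2 fold change of the 12 genes was -0.01.

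**Figure D5:**
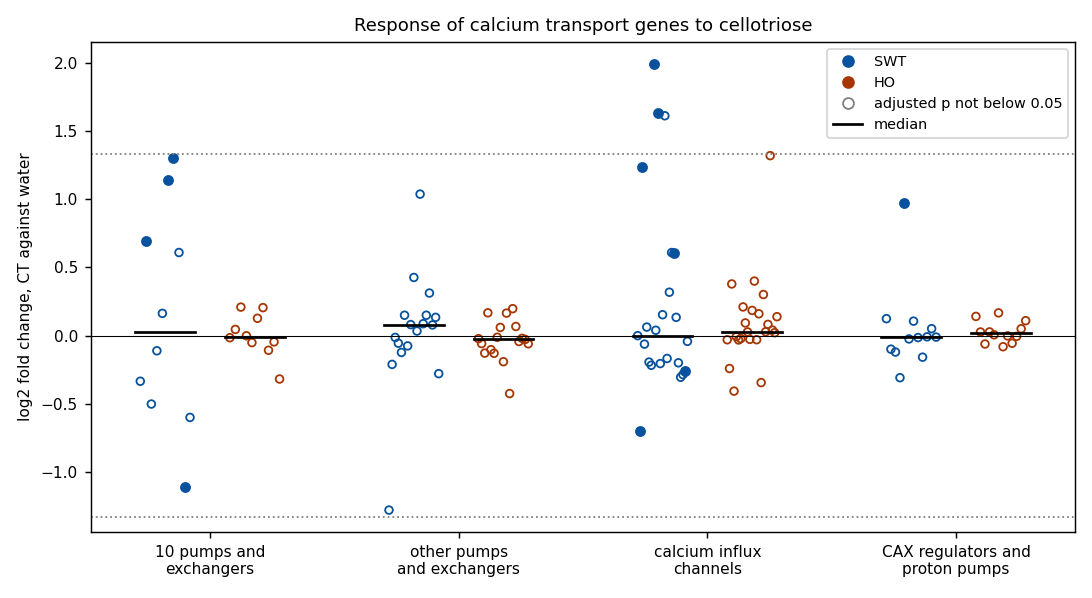
Log2 fold change with CT against water (vertical axis) of the 10 members and of 3 lists of calcium transport genes in SWT and HO; each circle is a gene, filled where the adjusted p was below 0.05, bars are medians and dotted lines the fold criterion. Filled circles are seen in SWT only: 4 among the members, 6 among the channels, 1 among the CAX regulators and proton pumps and 0 among the other pumps and exchangers. The members and lists were chosen with earlier results of these data known.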

How the data were processed

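Roots were placed in 4 groups of 3 libraries by the treatment and genotype in their labels. The authors aligned reads to TAIR10 with STAR 2.7.10a, counted them with featureCounts 2.0.1 and fitted all groups with DESeq2 1.34.0. They deposited 3 tables of results, with 0 columns of values per library. The deposited signal is a mean normalized count. The authors' log2 fold change, its log2 SE, their score (the Wald statistic), and their p-value and adjusted p-value cover the CT response of each genotype and the genotype difference in water. Because these tables give results and counts per library were not used here, the Wald tests were the main tests. Calls used an adjusted p below 0.05, alone or together with a log2 fold change of 1.33 or more in either direction, as the study did.

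Group means and SEs were recovered from the mean, the log2 fold changes and their SEs, assuming 1 dispersion per gene in a single fit. Dispersions from the 3 tables differed by at most 0.139% for the members. Intervals are 95% normal intervals. For HO versus SWT with CT, the response of HO was added to the difference in water and the response of SWT subtracted. Its variance was the sum of the variances of both responses minus that of the water difference. Adjustment was over 23103 genes. Python 3.11.15, numpy 2.4.6, scipy 1.17.1 and pandas 2.3.3 were used, and the scripts were tested on simulated data.

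Gene models and promoters came from RefSeq's TAIR10.1, and levels per kb used all exonic bases of that annotation. These were 4990 for ACA4 (3093 of them coding) and 4557 for ACA11 (3084 coding). The SEs and intervals of levels, shares and ratios per kb hold no error of this length. Of the listed non-members, those past both criteria in a comparison, or past the adjusted p for the difference of responses, were named. The members and lists were chosen with earlier results of these data known. The p-values planned for sister pairs, adjusted over the pairs alone, are not given. Alternatives were a stricter adjusted p (0.01), no fold criterion, a test against the fold criterion, division by the robust spread, genes with a mean of at least 50, no independent filtering and centring on the median. Leaving out replicates and a replicate block need values per library and were not run.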

Additional observations from a re-analysis of the deposited data

Results flagged for a closer look

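The response to CT differed between SWT and HO for 4 members in the z test of the difference itself, with Benjamini-Hochberg adjustment over all genes: ACA2 by 0.65, ACA11 by 1.02, ACA12 by 1.09 and CAX1 by -1.07 on the log2 scale (SWT response less HO response). Values of single libraries were not used here, so no library was examined for standing apart.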

How the results depend on the processing

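No paired analysis was possible because the tables used here give group results and not values per library, and leaving out each replicate was not run for the same reason. Under a test against the fold criterion itself, 0 members passed in SWT, 0 for the difference of the responses and 0 for HO versus SWT with CT, at either call. In SWT and for the difference of the responses no member exceeded the criterion, so none could pass. Without the fold criterion, the members past both criteria went from 0 to 4 in SWT, from 0 to 4 for the difference of the responses and from 2 to 6 for HO versus SWT with CT. With an adjusted p below 0.01, 2 members passed for the difference of the responses. With the statistics divided by their robust spread, 2 passed for that difference, and for HO versus SWT with CT 3 passed at the adjusted p and 1 at both criteria. The other 54 counts moved by less than 1.5 times. Over all genes, the calls at an adjusted p in SWT went from 2508 to 1690 at 0.01, 921 with division by the robust spread and 139 against the fold criterion. For the difference of the responses they went from 913 to 578, 581 and 33, and for HO versus SWT with CT from 3068 to 2018, 949 and 181. At both criteria the test against the fold took 615 calls in SWT to 139 and 745 with CT to 181. In HO the 2 calls went to 48 with division by the robust spread and to 0 at 0.01, and in water 44 went to 26 at 0.01 and 4 against the fold criterion. The robust spread was 0.775 in HO and 0.932 in water, where the division enlarged the statistics. It was 1.45 in SWT, 1.13 for the difference of the responses and 1.52 for HO versus SWT with CT, where the division reduced them. The log2 fold change of ACA8 in HO, near 0, reversed to 0.0070 with centring on the median of all genes. Of the members' values, 277 kept direction and call, 21 lost the call and 1 (ACA4 in SWT, over genes with a mean of at least 50) gained it. Genes with a mean of 50 to 500 had a median SE of 0.21 on the log2 scale, against 0.14 at 500 to 5000, and the SE of ACA13 in SWT was 0.52.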
